A study of Saccharomyces cerevisiae with 24 samples.

Results

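The genes of Saccharomyces cerevisiae chromosome X were followed in the wine yeast V5 and in its respiratory derivative V5.TM6*P. The probes on the filter arrays were laid down in the order of the systematic ORF names, and the members were defined by place. Their wells, on 1 print plate, start with the first left arm gene next to the centromere and end inside the right arm. This stretch was chosen with earlier results of these data known. The members are 335 of the 6330 probes, 223 of the left arm and 112 of the right arm. The probe of YJR095W, which lies in the same stretch, was left out of the set by its definition. Gene names could be tied to 84 of the members, and the rest are given by their well.

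V5 is a MATa ura3 gal wine strain made prototrophic with URA3. V5.TM6*P descends from V5, carries URA3 as well, lacks HXT1 to HXT7, and lives on a chimeric hexose transporter built from the amino part of Hxt1 and the carboxy part of Hxt7, a single constructed strain. Both were grown as aerated batch cultures in defined medium with glucose as the only carbon source. Samples of V5 were drawn early, at 38.4 and 35 g/L of remaining glucose, midway, at 25.5 and 24.4 g/L, and late, at 10.5 and 7.4 g/L. Those of V5.TM6*P were drawn at 36.5 and 34.8 g/L, then at 26.3 and 25.1 g/L, and finally at 13.5 g/L and 5.6 g/L. Each of these 12 RNA samples was measured on 2 arrays. Each strain was grown in 2 fermentations, and the labels do not say which of them a sample came from. The 6 samples of a strain are therefore time points and not 6 cultures, and the p-values measure the spread between them. A value below is the log2 of the background-subtracted spot intensity above the array median, and a log2 fold change is V5.TM6*P over V5.

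Chromosome X is a middle-sized yeast chromosome whose genes have little in common but their place. They include ribosomal proteins, subunits of the CCT chaperonin that folds actin and tubulin, a glyceraldehyde-3-phosphate dehydrogenase of glycolysis, cytochrome c and other parts of the respiratory chain, and enzymes of lipid, amino acid and cell wall synthesis. Yeast cells with a low glucose flux generally make more of the respiratory machinery and less of the machinery for rapid growth, so genes on 1 chromosome are normally found on both sides of such a comparison.

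The deleted transporter genes that had a named probe were looked at first. Their probes were named by a match to the study's factor between the strains, so these differences are not a check of the strain labels. HXT2 ran from -0.47 to 0.71 in V5 (median 0.12) and from -2.22 to -0.65 in V5.TM6*P (median -1.16; limma adjusted p = 0.0051). HXT3 was 0.80 lower on the log2 scale (log2 fold change -0.80, adjusted p = 0.0031), and HXT7, part of which remains in the chimera, was higher (log2 fold change 0.92, adjusted p = 0.0367). Signal at a deleted gene can come from its close relatives on a cDNA array. Median net intensity ran from 11.4 to 22.9 per array over a median background of 12.1 to 31.5. The background around the chromosome X spots was 0.953 to 1.02 times that around the other spots, and 0.522% of the member values were under the floor of 0.1 against 1.49% of all values.

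The chromosome X probes as a body were displaced in some samples and not in others. For each RNA sample the shift was taken as the median deviation of the members from their own means over the 12 samples, minus the same median for the 5995 other probes. In V5 the shift was -0.05 at 38.4 g/L, 0.20 at 35 g/L, 0.25 at 25.5 g/L, -0.02 at 24.4 g/L, 0.26 at 10.5 g/L and -0.03 at 7.4 g/L. In V5.TM6*P it was -0.10 at 36.5 g/L, -0.14 at 34.8 g/L, -0.13 at 26.3 g/L, -0.12 at 25.1 g/L, -0.11 at 13.5 g/L and -0.17 at 5.6 g/L. The V5 samples at 35, 25.5 and 10.5 g/L thus stood above the other 9 samples, and the 3 do not follow each other in glucose. They are 1 of each pair of neighbouring V5 sampling points, and since the fermentation of each is not given, a difference between the V5 fermentations and one between samples cannot be told apart. The V5 samples averaged 0.10 ± 0.15 and the V5.TM6*P samples -0.13 ± 0.02 (SD, n = 6 each), so the strains differed by 0.23 and V5 varied more from sample to sample.

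The same 3 samples stood out on each of their arrays. The 2 arrays gave 0.20 and 0.19 at 35 g/L, 0.26 and 0.17 at 25.5 g/L, and 0.25 and 0.29 at 10.5 g/L, whereas no array of the other V5 samples exceeded -0.0005. In those 3 samples 68.7%, 70.7% and 72.8% of the members lay above the median deviation of the other probes, against 43.9% to 47.2% in the other V5 samples and 32.5% to 41.8% in V5.TM6*P. Of the 335 members 122 (36.4%) had their highest V5 value at 10.5 g/L, compared with 18.3% of the other probes. The V5 sample at 24.4 g/L held the highest V5 value for 4.48% of the members and for 12.3% of the other probes.

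**Figure D1:**
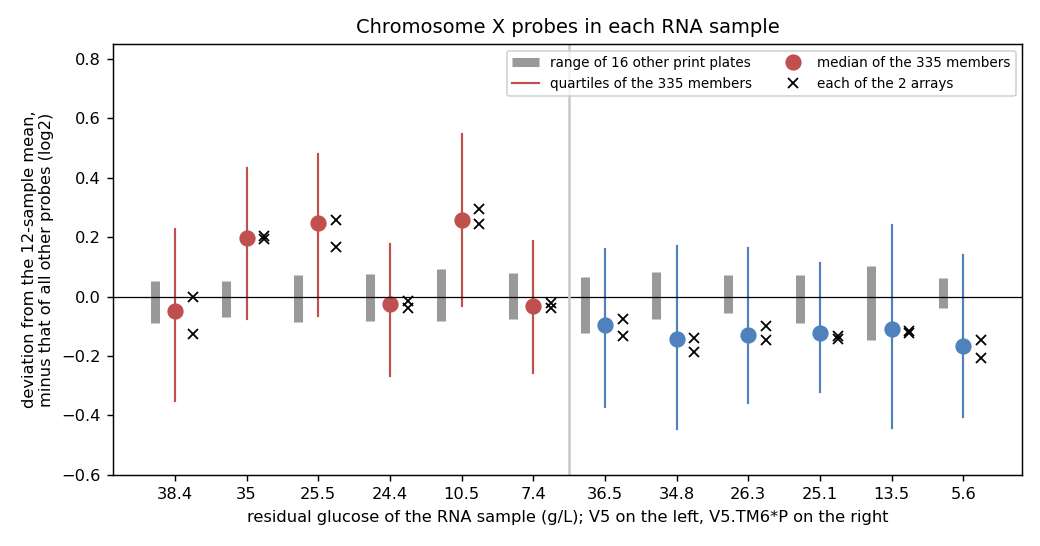
Shift of the chromosome X probes in each RNA sample (log2, y axis) by residual glucose in g/L (x axis), V5 in red and V5.TM6*P in blue. Dots are medians over the 335 members, lines their quartiles, crosses the 2 arrays and grey bars the range of 16 other print plates. The V5 samples at 35, 25.5 and 10.5 g/L sit at 0.20 to 0.26, above every grey bar.

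Measured against the mean of the 6 V5.TM6*P samples, the V5 shift was 0.01 at 38.4 g/L, 0.30 at 35 g/L, 0.33 at 25.5 g/L, 0.09 at 24.4 g/L, 0.37 at 10.5 g/L and 0.09 at 7.4 g/L. On the linear scale the 3 highest samples correspond to 1.23, 1.26 and 1.29 times the V5.TM6*P level, and the other 3 to 1.01, 1.07 and 1.06 times. Only RNA was measured, so more copies of the chromosome in a culture and more RNA from each copy cannot be told apart. The shift was also taken by signal, again from the means over the 12 samples. For the 112 members with the highest mean signal it was 0.21, 0.22 and 0.37 in V5 at 35, 25.5 and 10.5 g/L. For the 112 with the lowest it was 0.26, 0.35 and 0.23.

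No other print plate reached the 3 high V5 values. Among 16 other plates the shift in any of the 12 samples ran from -0.15 to 0.10. The first 48 wells of the chromosome X plate hold the end of chromosome IX and share its print source, and their shift in V5 was -0.21, -0.08, 0.0035, -0.17, 0.06 and -0.09 from the highest to the lowest glucose. In V5.TM6*P it ran from -0.09 to 0.29. The distal part of the right arm was printed from the next plate. Its 50 probes gave 0.05, 0.26, 0.36, -0.15, 0.31 and -0.11 in V5, with the same 3 samples highest as for the members, and -0.15 to -0.06 in V5.TM6*P. The remaining probes of that next plate, which lie on other chromosomes, stayed between -0.05 and 0.06. The chromosome IX end also had the V5 samples at 35, 25.5 and 10.5 g/L highest, so that order was not seen on chromosome X alone, but its values there were near 0 or below (-0.08 to 0.06) and its V5.TM6*P values were mostly higher than its V5 values.

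The displacement was spread over the length of the chromosome. The members were divided into 12 runs of 28 consecutive wells, from the left side of the centromere outward to the left telomere and then from the centromere into the right arm. At 10.5 g/L all 12 runs of V5 were above 0, from 0.11 to 0.47, and at 25.5 g/L all 12 were above 0 as well, from 0.0035 to 0.38. At 35 g/L 11 of 12 were above 0, with a range of -0.02 to 0.36. Each of the other 3 V5 samples had 4 of 12 runs above 0, and the V5.TM6*P samples had 0 to 4. Both arms took part: the left arm stood at 0.20, 0.28 and 0.29 and the right arm at 0.19, 0.17 and 0.20 in V5 at 35, 25.5 and 10.5 g/L.

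**Figure D2:**
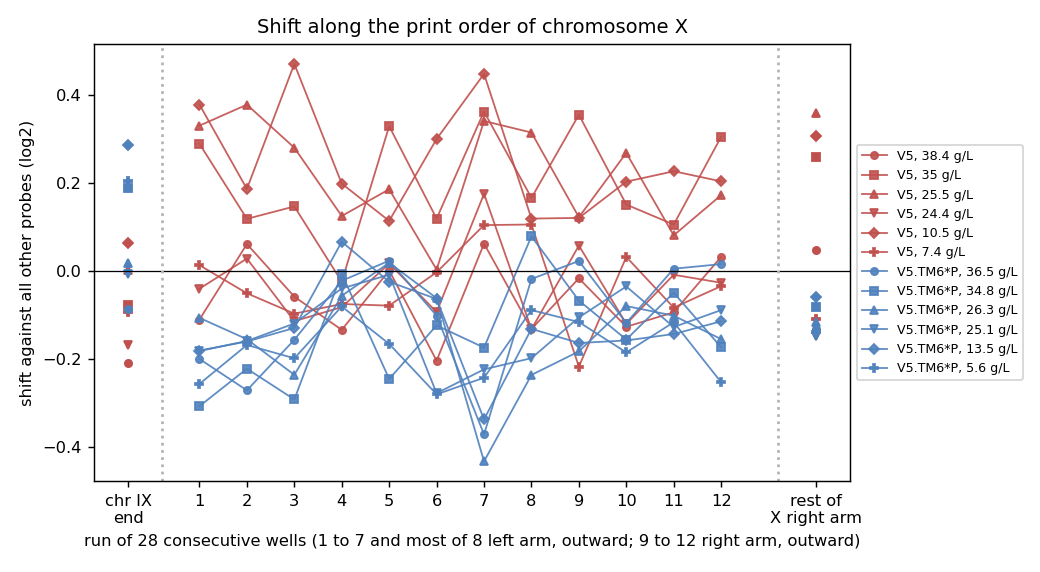
Shift (log2, y axis) in 12 runs of 28 wells along the print order of chromosome X (x axis), 1 line per RNA sample, V5 in red and V5.TM6*P in blue. The end of chromosome IX on the same plate is at the left and the rest of the right arm, from the next plate, at the right. The V5 samples at 35, 25.5 and 10.5 g/L lie above 0 in 11 or 12 of the 12 runs.

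The members without a name carried the pattern too, at -0.10, 0.17, 0.20, -0.05, 0.21 and -0.07 in V5 from the highest to the lowest glucose. The 84 named members gave 0.05, 0.37, 0.36, 0.15, 0.41 and 0.04. Names were found almost only for genes that the study listed as differing between the strains, so the named members are larger in their differences by construction.

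When the strains were compared gene by gene, 57 members were lower in V5.TM6*P and 13 were higher at an adjusted p under 0.05 (limma, Benjamini-Hochberg over all 6330 probes). Of all probes 5.40% were called lower and 6.79% higher, whereas 17.0% of the members were called lower and 3.88% higher. The median log2 fold change of the members was -0.27 (quartiles -0.51 and 0.10), and that of the other probes was -0.04 (quartiles -0.33 and 0.27). A share of 70.4% of the members lay below 0, compared with 54.1% of the others. In 39 members every V5.TM6*P sample was below every V5 sample (11.6%, against 3.24% of all probes), and in 10 every one was above (2.99%, against 4.83%). Without the V5 samples at 35, 25.5 and 10.5 g/L, a choice made after the shifts were seen, 14 members were called lower (4.18%, against 2.05% of all probes) and 7 higher (2.09%, against 3.59%), and the medians were -0.17 for the members and -0.08 for the others. With the shift of each sample subtracted from the members, 31 were called lower (9.25%, against 4.96% of all probes) and 30 higher (8.96%, against 7.05%).

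**Figure D3:**
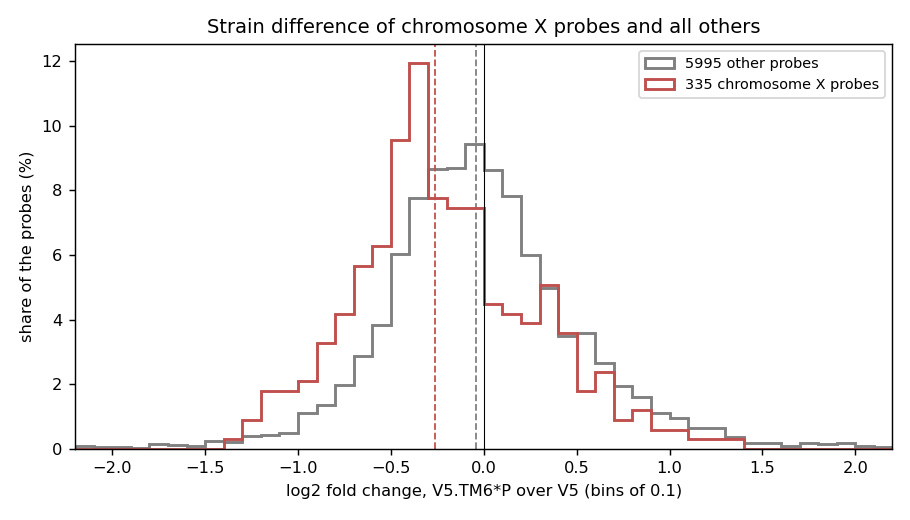
Share of probes in percent (y axis) by log2 fold change of V5.TM6*P over V5 in bins of 0.1 (x axis), for the 335 chromosome X probes in red and the 5995 others in grey. Dashed lines are the medians, -0.27 and -0.04.

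The calls were found on both arms, with 40 of 223 members lower and 8 higher on the left and 17 of 112 lower and 5 higher on the right. In the distal right arm on the next plate 8 of 50 probes were lower and 2 higher, and at the end of chromosome IX 0 of 48 were lower and 4 higher. Of the 12 runs, wells 216 to 243 (CPS1 to UBP12) had the lowest median log2 fold change, -0.59, with 12 calls lower and 0 higher. Wells 132 to 159 (ARG3 to GSH1 among the named) had the highest, 0.0075, with 1 call each way. Fold size differed with signal: the median log2 fold change was -0.39 in the 112 brightest members and -0.15 in the 112 dimmest, beside -0.11 and -0.02 for other probes of the same signal range.

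**Figure D4:**
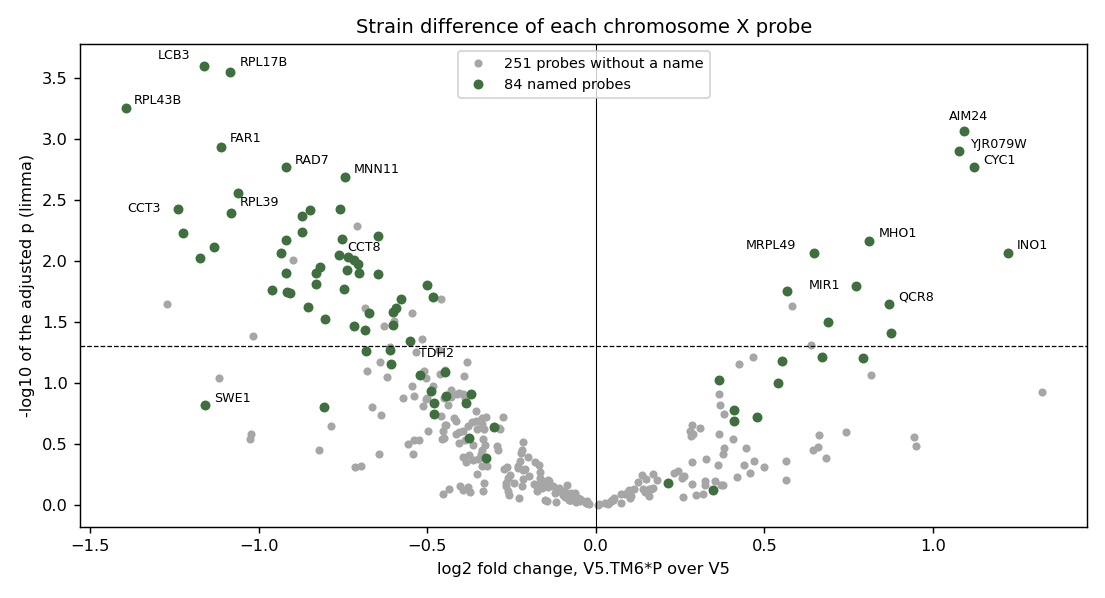
Log2 fold change of V5.TM6*P over V5 (x axis) against -log10 of the limma adjusted p (y axis) for the 335 chromosome X probes, named ones in green and unnamed ones in grey. The dashed line is an adjusted p of 0.05, above which lie 57 probes on the left and 13 on the right.

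Of the called members 47 of the 57 lower and 11 of the 13 higher had a name. Thus 47 of the 84 named members were called lower and 11 higher, and their median log2 fold change was -0.65. The gene groups are to be read beside these values and not only beside all probes. Since the study's own lists of changed genes supplied the names, the counts in the gene groups that follow are not independent evidence of a direction, and the groups were made up with results of these data in view.

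Ribosomal protein genes were lower in V5.TM6*P. All 5 that could be named passed the test, with a median log2 fold change of -1.08 (named members -0.65, all probes -0.05). RPL43B (YJR094W-A), a protein of the large subunit, had the lowest fold change of all members. Its values ran from 1.99 to 2.91 in V5 (median 2.65) and from 0.81 to 1.55 in V5.TM6*P (median 1.16), so the strains did not overlap (log2 fold change -1.39, SE 0.18, adjusted p = 0.000555). RPL17B (YJL177W) ran from 3.86 to 4.30 in V5 (median 4.12) and from 2.86 to 3.23 in V5.TM6*P (median 2.98), which is 0.472 times the V5 level (SE 0.13 on the log2 scale, adjusted p = 0.000282).

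RPL39 (YJL189W), also of the large subunit, had a log2 fold change of -1.08 (adjusted p = 0.00402). RPS21B and RPS22A of the small subunit had -0.96 (adjusted p = 0.0171) and -0.48 (adjusted p = 0.0196), and in all 3 the strains did not overlap. Most of these proteins are encoded by a pair of nearly identical genes, and a PCR product of RPL43B, RPL17B, RPS21B or RPS22A cannot separate the RNA of its twin on another chromosome. Ribosome assembly factors were on no list. UTP18, which takes part in the maturation of small subunit RNA, ran from -0.10 to 0.62 in V5 (median 0.19). In V5.TM6*P it ran from -1.65 to -0.19 (median -1.06; log2 fold change -1.18, adjusted p = 0.0095). MPP10, another part of that machinery, was lower by 0.72 (log2 fold change -0.72, adjusted p = 0.0339). ALB1, an assembly factor of the large subunit, was at -0.38 and did not pass (adjusted p = 0.282). Apart from ribosome assembly, TAD2, a tRNA adenosine deaminase subunit, had -1.13 (adjusted p = 0.00769).

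The CCT chaperonin had 3 named subunits, and 2 were called lower. CCT3 lay between 2.02 and 2.96 in V5 (median 2.61) and between 0.76 and 1.78 in V5.TM6*P (median 1.30), a log2 fold change of -1.24 (SE 0.22, adjusted p = 0.00373). Its V5 values at 35, 25.5 and 10.5 g/L were 2.90, 2.96 and 2.88, and those at 38.4, 24.4 and 7.4 g/L were 2.02, 2.34 and 2.28, all above the highest V5.TM6*P sample. Without those 3 samples CCT3 was not called (adjusted p = 0.0643). CCT8 was among the brightest named members (4.53 to 5.28 in V5, 3.90 to 4.47 in V5.TM6*P, log2 fold change -0.76, adjusted p = 0.00889). CCT5 did not pass (log2 fold change -0.39, adjusted p = 0.145). The adjoining dubious ORF YJL009W followed CCT8 (log2 fold change -0.82, adjusted p = 0.0112), and the double-stranded PCR products do not distinguish strands where ORFs overlap.

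Mitochondrial genes went mostly the other way. Of 8 named members on that list 5 were called higher and 1 lower, with a median log2 fold change of 0.61. CYC1, the main form of cytochrome c, ran from 3.00 to 3.89 in V5 (median 3.30) and from 4.19 to 4.74 in V5.TM6*P (median 4.54), and the strains did not overlap (2.17-fold, log2 fold change 1.12, SE 0.18, adjusted p = 0.00171). QCR8, a subunit of the cytochrome bc1 complex, had a log2 fold change of 0.87 (SE 0.22, adjusted p = 0.0224). Its V5 value was 4.14 at 10.5 g/L and 2.80 to 3.62 in the other V5 samples, so the highest V5 sample overlapped the V5.TM6*P range of 3.96 to 4.45. The call was lost without the V5 sample at 35 g/L (adjusted p = 0.0513) or that at 24.4 g/L (adjusted p = 0.0547). It was also lost with a block for the sample number. The same held without the V5.TM6*P arrays whose image names carry the code YA0403, where the rest carry YA0404. The sample titles give YA0403 for all 24 arrays, and what the code marks is not stated.

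MIR1, the mitochondrial phosphate carrier, was higher by 0.77 (SE 0.18, adjusted p = 0.0159), and the mitochondrial ribosomal proteins MRPL49 and MRPL8 by 0.65 (adjusted p = 0.00857) and 0.57 (adjusted p = 0.0176). SSC1, the matrix chaperone of protein import, and ATP12, an assembly factor of the ATP synthase, were at 0.41 each and did not pass (adjusted p = 0.165 and 0.202). MRX12, a mitochondrial gene on no list, was called lower (log2 fold change -0.80, adjusted p = 0.0298). That call was lost when any 1 of 6 samples was left out. AIM24, also on no list, has a product found in mitochondria and was higher. It ran from 2.85 to 3.53 in V5 and from 3.95 to 4.61 in V5.TM6*P (log2 fold change 1.09, adjusted p = 0.000862). The next ORF in the print order, YJR079W, had 1.08 (adjusted p = 0.00126), and since its annotation overlaps that of AIM24 the pair may be read as 1 signal.

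**Figure D5:**
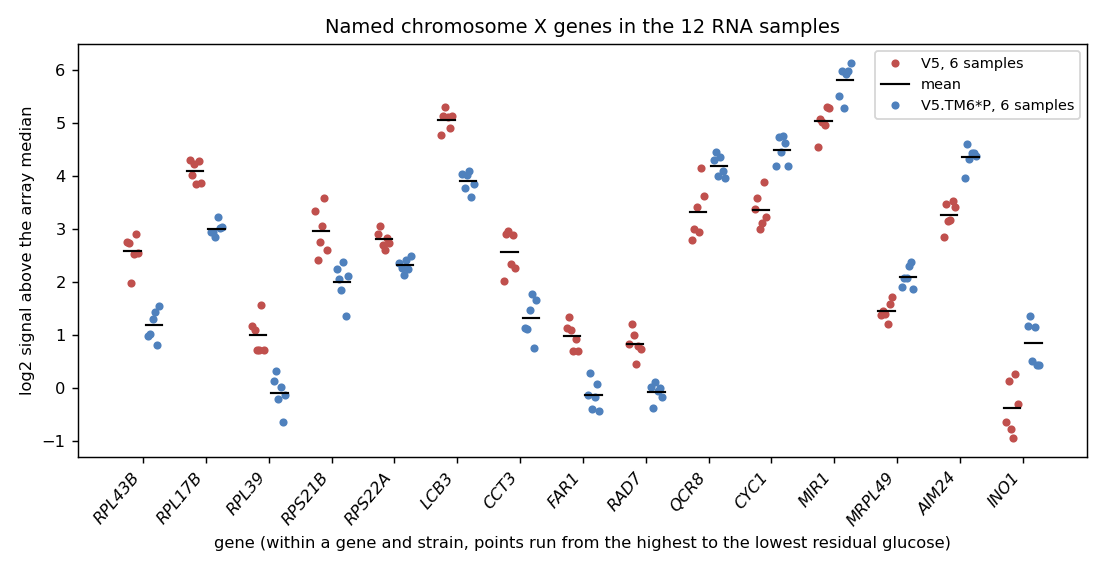
Log2 signal above the array median (y axis) of 15 named chromosome X genes (x axis) in the 6 V5 samples (red) and 6 V5.TM6*P samples (blue), with means as bars. Ribosomal, CCT, LCB3, FAR1 and RAD7 points lie lower in V5.TM6*P, and QCR8, CYC1, MIR1, MRPL49, AIM24 and INO1 points higher.

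Lipid genes showed both directions, with 3 of 5 named members called lower and 1 higher. INO1, the inositol phosphate synthase, had the largest rise among named members: it ran from -0.94 to 0.26 in V5 (median -0.47) and from 0.43 to 1.36 in V5.TM6*P (median 0.84), 2.33-fold (log2 fold change 1.22, SE 0.26, adjusted p = 0.00857). OPI3, which makes phosphatidylcholine, was at 0.67 and did not pass (adjusted p = 0.0605), although it did without the V5 sample at 10.5 g/L (0.84, adjusted p = 0.00713). MHO1, a gene of unknown function annotated as repressed through Opi1, was higher by 0.81 (adjusted p = 0.00683). LCB3, a phosphatase of sphingoid base phosphates, had the smallest adjusted p of the members: 4.78 to 5.29 in V5 (median 5.12) and 3.60 to 4.10 in V5.TM6*P (median 3.94), a log2 fold change of -1.16 (SE 0.13, adjusted p = 0.000252). ELO1, a fatty acid elongase, was lower by 0.83 (log2 fold change -0.83, adjusted p = 0.0155) and LAS21, an enzyme of GPI anchor synthesis, had -0.91 (adjusted p = 0.0183).

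Of the 9 named genes for DNA replication, repair and the cell cycle 4 were called lower and 0 higher. Their median log2 fold change of -0.60 was near that of all named members, -0.65. FAR1, the inhibitor that arrests the cell cycle in response to pheromone, ran from 0.70 to 1.34 in V5 (median 1.01) and from -0.42 to 0.28 in V5.TM6*P (median -0.14), with no overlap (log2 fold change -1.11, SE 0.16, adjusted p = 0.00117). RAD7 of nucleotide excision repair and RFC2 of the clamp loader each had a log2 fold change of -0.92 (adjusted p = 0.00171 and 0.00676), and RFA3 of the single-strand binding complex had -0.60 (adjusted p = 0.0259), a call lost when any 1 of 4 samples was left out (adjusted p = 0.0503 to 0.0526). The mitotic kinase gene SWE1 had -1.16 with 1 very low sample and did not pass (adjusted p = 0.151). MAD3, POL31, TAH11 and DPB11 did not pass either. STE18, the gamma subunit of the pheromone G protein, was lower by 0.93 (log2 fold change -0.93, adjusted p = 0.00857), although no list held it.

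In secretion and glycosylation 4 of 5 named members were called lower and 0 higher. They were OST1 of the oligosaccharyltransferase (log2 fold change -0.65, adjusted p = 0.0127), SYS1 of the Golgi (-0.65, adjusted p = 0.00623), and the mannosyltransferases MNN11 (-0.74, adjusted p = 0.00204) and MNN5 (-0.92, adjusted p = 0.0179). HSP150, a secreted cell wall protein, was at 0.48 and did not pass (adjusted p = 0.189). Of 4 named genes of amino acid and sulfur metabolism 0 were called in either direction at the adjusted threshold, with ILV3 at -0.61 (adjusted p = 0.0532), MET3 at -0.81 (adjusted p = 0.155), GSH1 at -0.52 (adjusted p = 0.0859) and ARG3 at 0.55 (adjusted p = 0.0658). TDH2, the glyceraldehyde-3-phosphate dehydrogenase that was the brightest named member, ran from 8.61 to 9.48 in V5 (median 9.05) and from 8.10 to 8.72 in V5.TM6*P (median 8.56), a log2 fold change of -0.55 (SE 0.16, adjusted p = 0.0448). Leaving out any 1 of 10 of the 12 samples removed the call (adjusted p = 0.0571 to 0.0932). The strains overlapped in TDH2, and its close relatives in the genome can add to its signal.

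Among the members without a name, 10 were called lower and 2 higher. Both were smaller shares than those of all probes, of which 5.40% were called lower and 6.79% higher. Names came almost only from the study's lists of changed genes, so fewer calls are left among the unnamed members by construction. The probe at well 96, between MHP1 and BNA3, had a log2 fold change of -1.27 (adjusted p = 0.0224) at signals below the array median, and its direction reversed in the authors' table (0.65, adjusted p = 0.423). The largest value upward, 1.32 at well 362, did not pass (adjusted p = 0.119), nor did 0.95 at well 367 (adjusted p = 0.324). At both wells the V5 values were widely spread, from -4.60 to -1.77 at well 362 and from -3.92 to 0.38 at well 367.

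The members showed no called dependence on glucose. In the fit with a line per strain, 0 of 335 had a slope in V5 at an adjusted p under 0.05 (0.0158% of all probes did). For the V5.TM6*P slope the number was 0, and so it was for the slope difference (0% of all probes in each). At an unadjusted p under 0.05 there were 30, 17 and 23 members (8.96%, 5.07% and 6.87%), against 12.2%, 5.97% and 8.14% of all probes. The smallest adjusted p of the members was 0.125, for a rise of 0.0629 log2 units per g/L in V5 at well 289, between ILV3 and TES1. The dubious ORF YJL067W, at -0.0425 per g/L in V5, had an adjusted p of 0.151. In the strain comparison it was higher by 0.87 (adjusted p = 0.0389), a call lost when any 1 of 8 samples was left out (adjusted p = 0.0546 to 0.0828). In V5.TM6*P the smallest belonged to wells 178 and 370 and to MRX12, at 0.124, 0.0422 and 0.036 per g/L, with adjusted p of 0.421, 0.484 and 0.484. Of the other fits of the V5 slope 4 called 1 to 7 members, each a smaller share than that of all probes: 0.299% against 1.44% with a trended robust prior, 0.896% against 2.34% with normexp, 2.59% against 4.58% among probes above the array median, and 2.09% against 2.21% with all 24 arrays.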

How the data were processed

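The authors measured each spot with Imagene (version 5.6.2 per the file headers) after phosphor imaging and deposited the median spot intensity and median local background intensity of 9600 spots for 24 arrays. Their own table, also deposited, holds processed intensity values on a linear scale with a scaling that is not given in the sources used here. Here the background median was subtracted, a floor of 0.1 was applied before log2, and repeated spots, then (after centring each array on its median) both arrays of a sample, were averaged, in the order of the study's methods. The floor acts differently here, since net intensities are about 10.7 times the values of the authors' table: it caught 1.49% of them but 5.04% of the table's, and a floor of 1 was an alternative. The number of arrays limits the precision.

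The strain comparison used limma 3.58.1 in R 4.3.3 (functions lmFit and eBayes) with Benjamini-Hochberg adjustment over 6330 probes at 0.05, and a second fit gave each strain an intercept and a glucose slope. Fits were tested on simulated data. Shifts and medians are descriptions without a test. Python 3.11.15 with pandas 2.3.3, numpy 2.4.6, scipy 1.17.1 and matplotlib 3.10.9 did the rest, with statmod 1.5.0 for the random block. The files carry no gene names. A probe was named where the factor and base value recomputed from the authors' table matched a gene of the study's additional spreadsheets, and 79 of the 84 named members matched RefSeq assembly R64 by locus tag, all on chromosome X. None was out of ORF order (0 of 84). Columns with the authors' own factors and p-values in those spreadsheets served only as this key. No sequences or coordinates are given, since the build of the probes is not stated.

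The members, the lists by role and the tests were chosen with earlier results of these data known. Named in the text are the 8 largest called changes in each direction among named members, the 6 brightest named members, named members of the lists, the 3 smallest p for each slope and the 6 members furthest from the median fold change on each side. Values of 1 member are left out of the text but enter all counts and medians. MPP10, STE18 and ALB1 were added after their values were seen. Alternatives changed the floor, the source table, background correction, centring, signal filter, variance model, arrays and samples.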

Additional observations from a re-analysis of the deposited data

Results flagged for a closer look

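In 10 of the 112 groups of 6 samples examined, 1 sample stood far from the other 5, where chance alone gives such a gap in about 1 of 20 groups. A set of 4 of the 10 concern the V5 sample at 38.4 g/L: the probe at well 96 was at -1.47 there and at -1.03 to -0.79 in the other V5 samples, DPB11, a DNA replication factor, at -3.84 and otherwise -0.84 to 0.18, MNN11 at 1.49 and otherwise 1.79 to 1.94, and MET3, the ATP sulfurylase of sulfate assimilation, at -1.23 and otherwise -0.60 to -0.34. The V5 sample at 10.5 g/L stood apart in 3: OST1 at 2.60 against 1.91 to 2.13, OPI3 at 4.00 against 2.77 to 3.21, and the probe at well 370 at -0.96 against -0.45 to -0.15. OPI3 had a second such sample in V5.TM6*P at 34.8 g/L, with 4.35 against 3.62 to 3.88. SWE1 was at -3.77 in V5.TM6*P at 13.5 g/L and at -1.28 to -0.16 in the others. The probe at well 367 was at -3.92 in V5 at 7.4 g/L and at -0.67 to 0.38 in the others. The chromosome X shift itself had no such gap in either strain.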

How the results depend on the processing

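Of the alternatives, 2 were chosen after seeing the data: the V5 samples at 35, 25.5 and 10.5 g/L left out, and the shift of each sample subtracted from the members before the fit. Without the 3 samples the members called fell to 14 lower and 7 higher, with 13 and 6 of them shared with the reported calls, and the median difference from the other probes was -0.0898 in place of -0.22. With the shift subtracted 31 were lower and 30 higher, sharing 31 and 13, and the median difference was 0.0071 by construction. With a replicate block 35 were lower and 9 higher (3.22% and 4.77% of all probes). Same-numbered samples were close in glucose, and their deviations correlated at 0.02 to 0.053, with 5 of 6 best with their own number. Without the 2 lowest glucose points 28 were lower (2.75% of all probes, fewer samples). Leaving out each RNA sample in turn gave 47 to 57 lower and 8 to 15 higher, the fewest higher without the V5 sample at 24.4 g/L, and a median difference of -0.24 to -0.19. It gave a mean shift of 0.08 to 0.13 in V5 and of -0.14 to -0.10 in V5.TM6*P and 0.19 to 0.26 for V5 minus V5.TM6*P.

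Normexp with an offset of 50 and quantile normalization shrank the median difference to -0.047, the mean V5.TM6*P shift to -0.0287 and V5 minus V5.TM6*P to 0.0552, an offset above the median net intensity, while its counts held. Against the V5.TM6*P mean, that strain's shift was -0.0152 by construction. For the V5 slope normexp called 3 members, probes above the array median 5, a trended robust prior 1 and all 24 arrays with a random block 7, and the cause was not tested. No member is spotted more than once, so leaving out repeated probes gives no other value.

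Of 55 named genes or wells 35 were called, and 13 kept the call in every alternative, among them LCB3, INO1, FAR1, RPL17B, MNN11, RPL39, MHO1, CYC1, RAD7, YJR079W, AIM24 and RPL43B. TDH2 lost it in 16 and YJL067W in 12 of 25. Without the 3 V5 samples 21 lost it. MRX12 lost it when any 1 of 6 samples was left out (adjusted p = 0.0556 to 0.067), and well 96 without the V5 sample at 24.4 g/L (0.0507). Calls were gained by ILV3 without the V5 sample at 7.4 g/L (0.0245) and by ARG3 without V5 at 38.4 or V5.TM6*P at 36.5 g/L (0.0441 and 0.0328). The strain difference changed sign for the probe at well 96 in the authors' table (0.65), for DPB11 with no floor (-0.23), in the authors' table (-0.51) and with normexp (-0.0193), and for the probe at well 370 in the authors' table (0.24). The probe at well 178 turned to 0.11 with a floor of 1, 0.32 with no floor, 0.0167 with normexp, 1.09 without the lowest glucose points and 0.0813 with the shift subtracted. Well 289 turned to -0.26 without the lowest glucose points. Well 305 turned to 0.10 in the authors' table, 0.32 without the lowest glucose points, 0.13 without the 3 V5 samples and 0.20 with the shift subtracted. Leaving out 1 sample gave -0.24 to 0.57 for DPB11, -0.50 to 0.27 for well 178 and -0.18 to 0.10 for well 305. Of these only well 96 was called as reported, and of the reversed values only that of DPB11 in the authors' table passed (adjusted p = 0.0488). Spots near background limit the dim members.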
